A study of Homo sapiens with 2 samples.

Results

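Autophagy, lysosome and V-ATPase genes were compared between 1 library of slow-cycling cells (SCCs) and 1 library of non-slow-cycling cells (non-SCCs) of SK-ES-1 (cells of a line grown from an Ewing sarcoma, a tumour of bone, and labelled WT in both groups). The genes were chosen by symbol: ATG genes with a number, V-ATPase subunit genes, the MAP1LC3 and GABARAP families, LAMP1, LAMP2, ULK1, ULK2, BECN1, TFEB, TFE3, WIPI1, WIPI2 and the cathepsins. Of 98 table entries with such names, 24 taken as pseudogenes by symbol or RefSeq type and 3 hyphenated entries were left out. This gave 71 member genes among 53737 genes in all. How the slow-cycling cells were separated was not stated in the labels. Each group being a single library, the differences below have no replicates behind them and carry no p-value.

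Autophagy wraps cytoplasm in a double membrane, the autophagosome, which fuses with the lysosome. The ULK1 kinase complex starts the process, the BECN1 lipid kinase complex and the ATG9 and ATG2 proteins build the membrane, and a ubiquitin-like conjugation system attaches proteins of the ATG8 family (MAP1LC3 and GABARAP) to its lipids. In the lysosome the V-ATPase, a proton pump with a cytosolic V1 sector and a membrane-bound V0 sector, provides the acid in which cathepsins digest proteins. TFEB and TFE3 are transcription factors that bind an E-box called the CLEAR element in the promoters of many of these genes, and autophagy is known as a route by which resting cells recycle their contents.

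Most members differed little between the libraries, and a few stood higher in SCCs. In such bulk RNA, a change in the mix of cells and a change in RNA per cell cannot be told apart. MAP1LC3B and GABARAPL1, 2 proteins of the ATG8 family, the V-ATPase subunit ATP6V1A, the cathepsin CTSF and the lysosomal membrane protein LAMP2 were each at least 25% higher at mean levels of 10 per-million units or more. That level limit was chosen after seeing the data. These were 5 of 45 members at that level, or 11.1%, against 5.62% of all genes there. Of the 71 members, 61 were tested, that is, reached 1 per-million unit in either library, and CTSH alone did so through SCCs only. The log2 ratio of a gene is its log2(value + 1) in SCCs minus that in non-SCCs, which understates differences of low genes. The median ratio of the 61 tested members was 0.04, against 0.03 for all 13444 tested genes. Of the members 36 lay above 0 and 25 below, and of all tested genes 56.2% lay above 0. Every fold or percent below that counts genes past a limit is on this log2(value + 1) scale.

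Only 1 member was at least 1.5-fold higher, CTSH, or 1.64% of those tested, where the share of all tested genes was 5.38%. No member was at least 1.5-fold lower, where the share of all tested genes was 1.41%. On the same scale, at least 25% higher were 11 members, or 18.03%, and at least 20% lower was 1, or 1.64%. The shares of all tested genes were 13.5% and 4.99%. On that scale no member was 2-fold higher or lower, against 1.9% and 0.431% of all tested genes. The plain ratio of levels, with nothing added, was 4.17 for CTSH, whose log2 ratio of 0.85 was 1.79 with a pseudocount of 0.1. Plain ratios were also past 1.5-fold for MAP1LC3B2 (1.78), CTSS (1.60) and ATG9B (1.52), and downward for ATP6V1E2 (0.638), all genes at low levels. With a pseudocount of 0.1, 4 members were at least 1.5-fold higher and 1 lower, against 7.57% and 2.31% of all tested genes. Past 1.5-fold and 2-fold, and downward, the shares of members were thus near or below the background. The share at least 25% higher, 18.03%, was above the 13.5% of all tested genes and the 11.7% of protein-coding genes. The counts are small, and none of these shares is read as a result about the members.

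Low levels widened the ratios of all genes. Among the lowest twentieth of tested genes by level, the median ratio was 0.43, and 40.4% were past 1.5-fold upward. Among the highest twentieth the median was -0.09 and 0.893% were at least 1.5-fold higher. Each member is therefore also placed among genes of like level, the 672 or 673 tested genes in the same of 20 bins of mean level. A member near the edge of a bin is set against genes on 1 side of it more than the other. Of the 45 members with a mean level of at least 10 per-million units, a limit chosen after seeing the data, 5, or 11.1%, were at least 25% higher and 0 at least 20% lower, against 5.62% and 3.12% of all 9299 genes at that level. None of the 45 was past 1.5-fold, against 1.05% upward and 0.312% downward of the 9299.

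**Figure D1:**
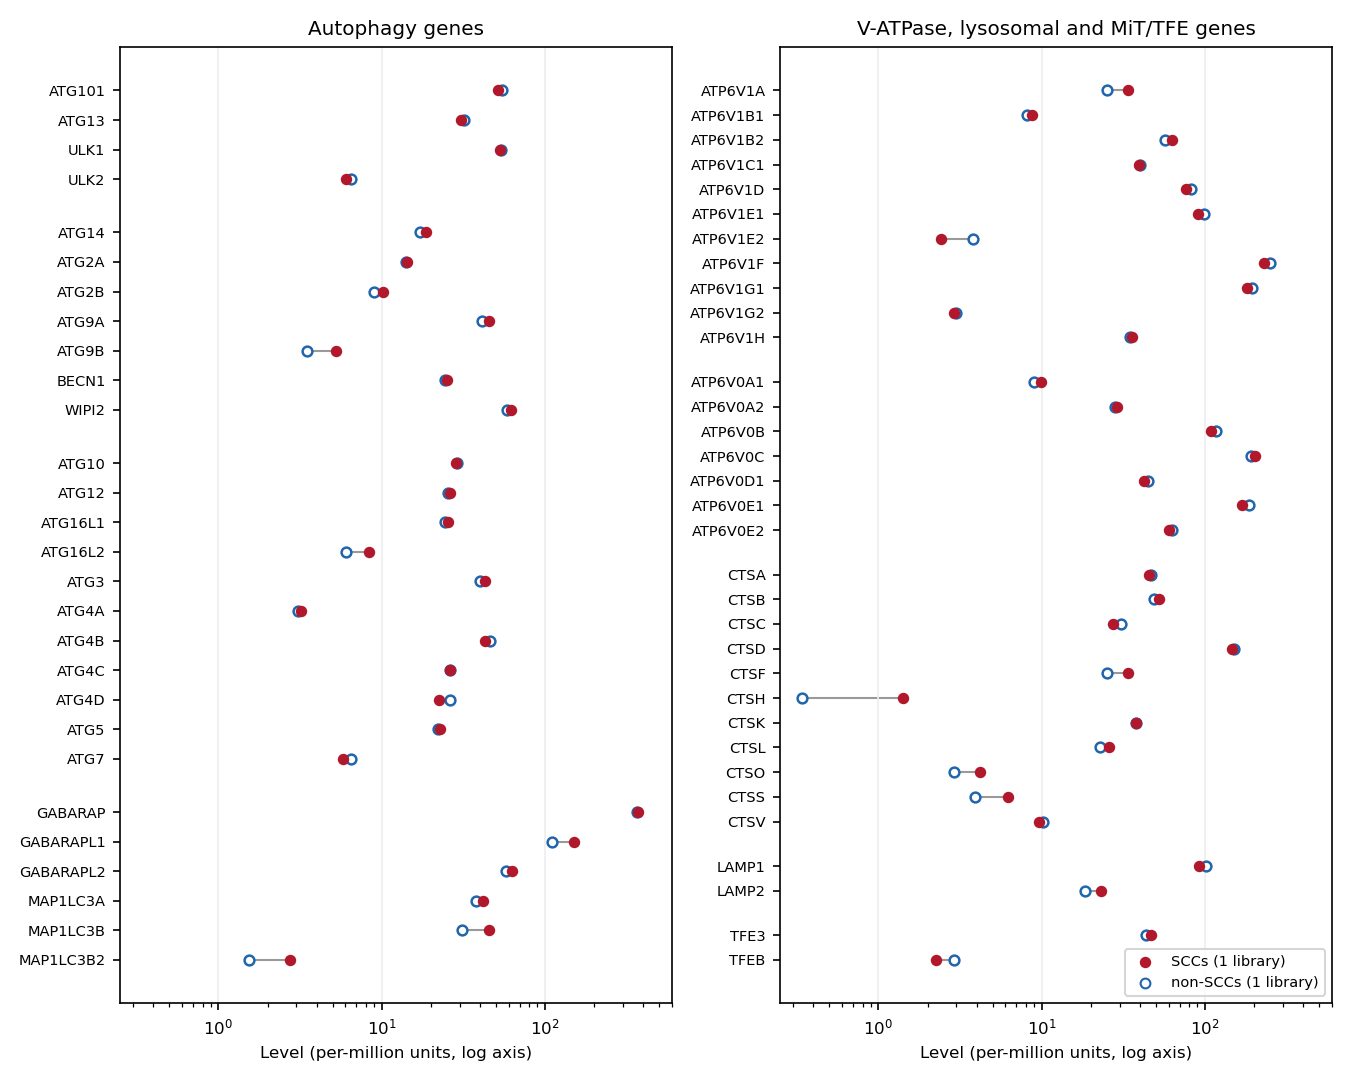
Level of each of the 61 tested members in per-million units on a log axis, with filled points for the SCCs library and open points for the non-SCCs library, grouped by role. Most pairs of points nearly coincide, while MAP1LC3B, GABARAPL1, ATP6V1A, CTSF and LAMP2 sit to the right in SCCs, and the widest gap, of CTSH, lies at 1.42 and 0.339 units.

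**Figure D2:**
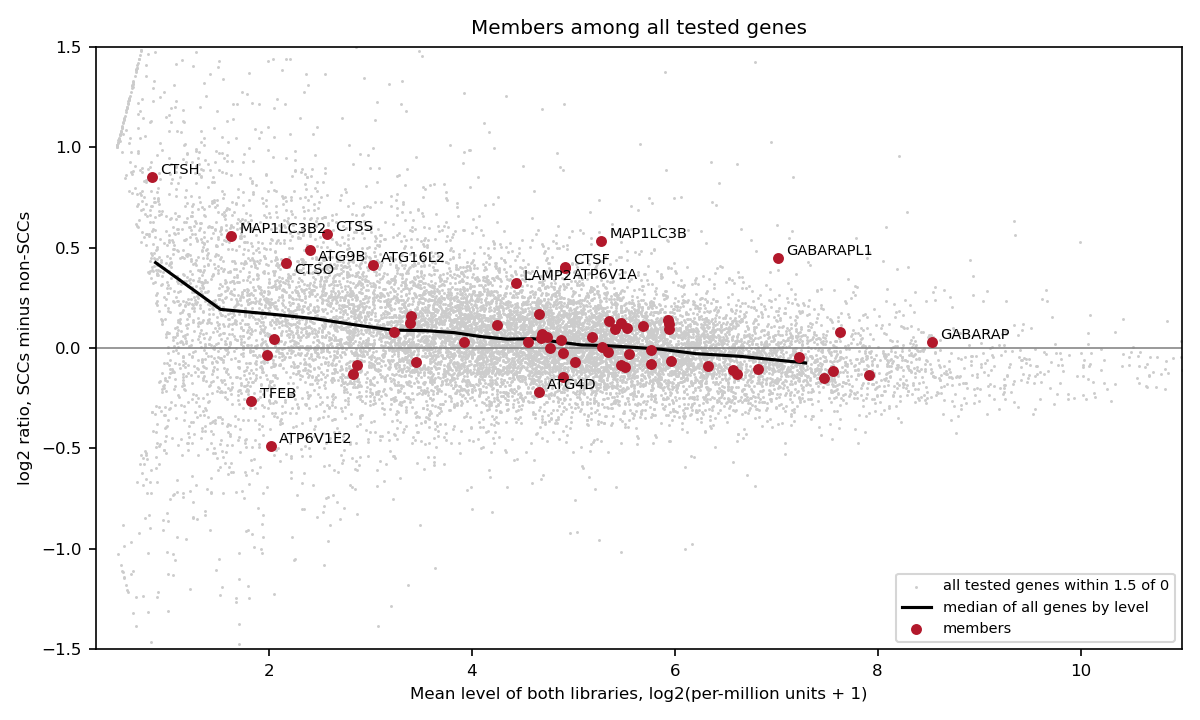
log2 ratio (SCCs minus non-SCCs) against mean log2 level for all tested genes within 1.5 of 0 (grey) and for the members (red), with the median of all genes by level as a line. The grey cloud narrows as levels rise; MAP1LC3B (0.53) and GABARAPL1 (0.45) lie near its upper edge, while CTSH (0.85) lies inside its broad low end.

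The ATG8 family had the highest median of the role groups. The ratios of all 6 tested members lay above 0, against 56.2% of all tested genes, and those of 3 were past 25% upward, against a share of 13.5% of all tested genes. One of the 3, MAP1LC3B2, has an uncertain value. The median of the 6 was 0.29, and it was 0.14 over the 5 with a mean level of at least 10 units. MAP1LC3B, the most widely used marker protein of autophagosomes, was at 45.6 per-million units in SCCs and 31.2 in non-SCCs. Its log2 ratio of 0.53 was above 99.5% of the 672 genes of like level. GABARAPL1, a relative that acts late in autophagosome maturation, was at 151 in SCCs and 110 in non-SCCs, a ratio of 0.45 that was above 99.2% of the genes of like level. The other well-expressed members of the family differed less.

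MAP1LC3A was at 41.8 in SCCs and 37.9 in non-SCCs, with a log2 ratio of 0.14. GABARAPL2 was at 62.9 in SCCs and 57.9 in non-SCCs, with a ratio of 0.12. GABARAP itself was at 373 in SCCs and 365 in non-SCCs, a ratio of 0.03 that was above 80.1% of genes of like level. The ratio turned to -0.00317 when the median ratio of all tested genes was set to 0. It was 0.11 when the median of genes of like level was set to 0. Of the exonic bases of GABARAP 30.5% lie within another annotated model on its strand and 25.2% opposite one, so its value is uncertain. Within the family, the difference was thus uneven: 2 of the genes at more than 30 units in both libraries were at least 25% higher and 3 were not. MAP1LC3C was below 1 unit in both libraries, at 0.0724 in SCCs and listed at 0 in non-SCCs.

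MAP1LC3B2 was at 2.76 in SCCs and 1.55 in non-SCCs, a log2 ratio of 0.56, but its value is uncertain. The coding sequences of MAP1LC3B and MAP1LC3B2 (378 bases each, GENCODE release 29) are identical at 376 positions, or 99.5%, and how the authors' counting shared out reads that match both genes is not given. GABARAPL1 is 76.8% identical to GABARAP over 354 coding bases, and MAP1LC3B 71.2% identical to MAP1LC3A. The last 30 coding bases, stop codon included, are shown 5′ to 3′ because the family is joined to lipid through a glycine near the end, once ATG4 proteases have cut off what follows; the capitals mark the last glycine codon. These stretches come from the GENCODE transcripts of genes on chromosome 16 (MAP1LC3B, 87392336 to 87404774, GRCh38), 12 (MAP1LC3B2, 116559381 to 116576606, and GABARAPL1, 10212877 to 10223128), 20 (MAP1LC3A, 34546844 to 34560345), 17 (GABARAP, 7240008 to 7242449) and 16 (GABARAPL2, 75566379 to 75577881).
MAP1LC3B: gagacgttcGGGatgaaattgtcagtgtaa
MAP1LC3B2: gagacgttcGGGatgaaattgtcagtgtaa
MAP1LC3A: tacgcctcccaggaaaccttcGGCttctga
GABARAPL1: tacagtgatgagagtgtctatGGGaaatga
GABARAP: tacagtgacgaaagtgtctacGGTctgtga
GABARAPL2: tacagcggagagaacacttttGGCttctga
After the glycine codon, MAP1LC3B and MAP1LC3B2 have 5 codons before the stop, with the same letters in both genes, and the other 4 genes have 1.

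The members that start autophagy lay close to 0. All 4 members of the initiation complex had a ratio below 0, as did 5882 of all 13444 tested genes. The median of the 4 was -0.07. The kinase gene ULK1 was at 53.2 in SCCs and 53.6 in non-SCCs, a log2 ratio of -0.01, and its relative ULK2 was at 6.08 in SCCs and 6.498 in non-SCCs, a ratio of -0.08. The adaptor ATG13 was at 30.5 in SCCs and 32.1 in non-SCCs, and ATG101, which stabilises ATG13, at 51.8 in SCCs and 54.7 in non-SCCs. All 4 ratios were between the quartiles of the ratios of all tested genes, -0.10 and 0.19. RB1CC1, a gene of this complex whose symbol lies outside the member rule, went the other way. It was at 42.1 in SCCs and 37.9 in non-SCCs, a ratio of 0.15 above 80.7% of genes of like level.

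All 7 tested genes of nucleation and membrane supply had a ratio above 0, against 56.2% of all tested genes, with a median of 0.11. One of them, ATG2A at 0.03, turned to -0.00387 when the median ratio of all tested genes was set to 0. BECN1, a scaffold of the lipid kinase complex, was at 25.1 in SCCs and 24.3 in non-SCCs, a log2 ratio of 0.05. Its partner ATG14 was at 18.8 in SCCs and 17.3 in non-SCCs (ratio 0.11), and the lipid scramblase ATG9A at 45.3 in SCCs and 41.4 in non-SCCs (ratio 0.13), with 38.8% of its exonic bases within another model on its strand, so its value is uncertain. ATG2B, a lipid transfer protein, was at 10.2 in SCCs and 8.98 in non-SCCs, a ratio of 0.16. The only one at least 25% higher was ATG9B, the second ATG9 gene, at 5.27 in SCCs and 3.48 in non-SCCs, a ratio of 0.49 above 85.2% of genes of like level. Of its annotated exonic bases, 12.3% lie opposite NOS3 on the other strand, and whether the counting used strand is not given in the sources used here. The same limit holds for other members with larger opposite overlap, such as CTSA (28.5%), ATP6V1F (23.7%), ATG101 (19.2%), ATG7 (18.1%) and BECN1 (17.1%). WIPI1, which reads the lipid signal at the forming membrane, was listed at 0 in both libraries, and its relative WIPI2 was at 62.3 in SCCs and 58.4 in non-SCCs.

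The conjugation machinery and the ATG4 proteases had a median of 0.03 over 11 genes, 7 above 0 and 4 below. ATG16L2, a relative of the conjugation scaffold ATG16L1, was at 8.41 in SCCs and 6.07 in non-SCCs, a log2 ratio of 0.41 above 87.0% of genes of like level. ATG4D, a protease of the ATG8 proteins, was lower, at 22.4 in SCCs and 26.3 in non-SCCs, a ratio of -0.22 above only 7.06% of genes of like level. Of the exonic bases of ATG4D, 14.97% lie opposite KRI1.

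The E1-like enzyme ATG7 was at 5.80 in SCCs and 6.45 in non-SCCs (ratio -0.13), and the main protease ATG4B at 43.2 in SCCs and 46.2 in non-SCCs (ratio -0.10). The 7 other genes (ATG3, ATG4A, ATG4C, ATG5, ATG10, ATG12 and ATG16L1) had ratios within 0.1 of 0, so most of the conjugation genes were at nearly equal levels in the 2 libraries. The median of the 11 genes turned to -0.000928 when the median of all tested genes was set to 0.

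**Figure D3:**
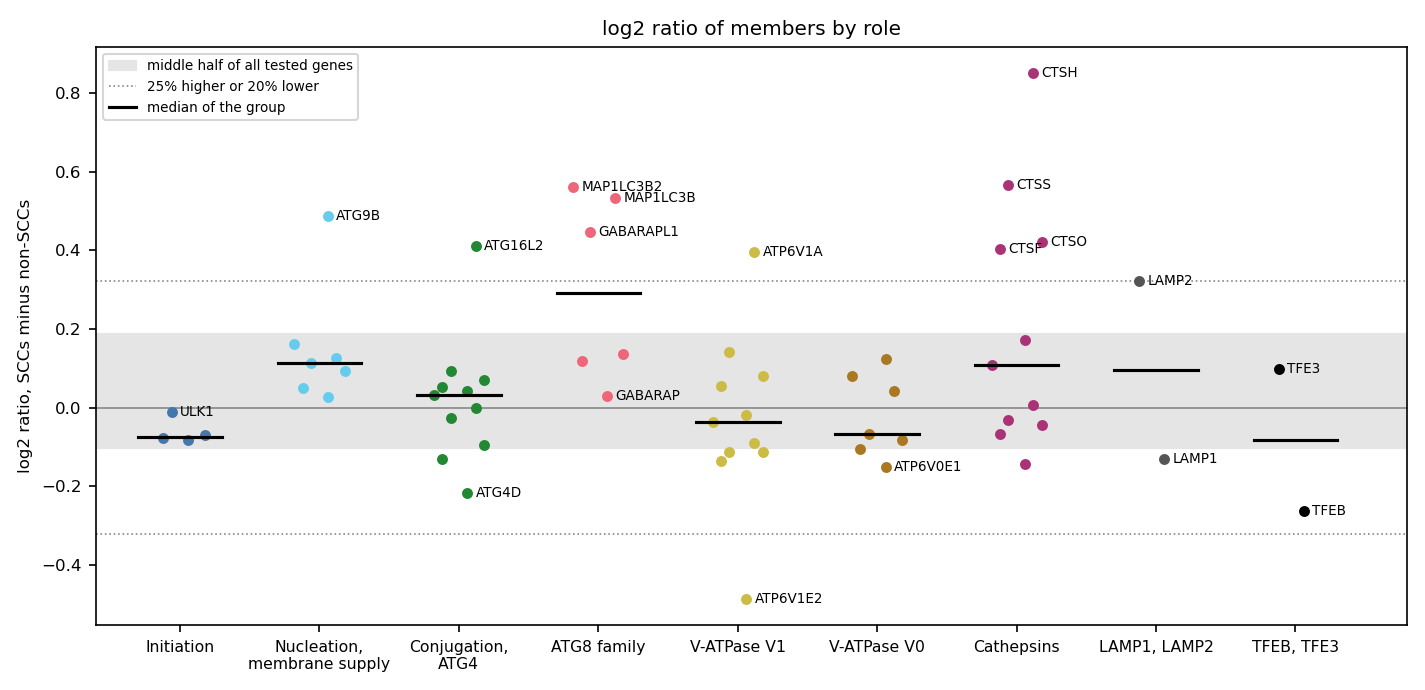
log2 ratio (SCCs minus non-SCCs) of each tested member by role, with 1 point per gene, a bar at each group's median, a grey band between the quartiles of all tested genes and dotted lines at 25% higher and 20% lower. The ATG8 family has the highest median (0.29), and the V1 and V0 medians (-0.04 and -0.07) lie below 0.

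Genes of the V-ATPase, the pump that acidifies the lysosome, were mostly a little lower in SCCs. Of 22 such genes 18 were tested, 11 with a ratio below 0 and 7 above, and the median was -0.05. Of all 13444 tested genes, 5882 lay below 0. The V1 sector, which splits ATP, had a median of -0.04 over 11 genes and the V0 sector, which carries protons through the membrane, -0.07 over 7. ATP6V1A, the catalytic subunit, was higher, at 33.6 in SCCs and 25.3 in non-SCCs, a log2 ratio of 0.40 above 96.8% of genes of like level. ATP6V1B2, the B subunit that alternates with it in the ring, was at 63.1 in SCCs and 57.1 in non-SCCs, a ratio of 0.14.

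The abundant stalk and membrane subunits were lower by small amounts. ATP6V1F was at 229 in SCCs and 251 in non-SCCs (log2 ratio -0.13), and ATP6V1G1 at 180 in SCCs and 195 in non-SCCs (ratio -0.11). ATP6V0E1 was at 168 in SCCs and 186 in non-SCCs (ratio -0.15), ATP6V0B at 108 in SCCs and 117 in non-SCCs (ratio -0.10), and ATP6V0D1 at 42.1 in SCCs and 44.7 in non-SCCs (ratio -0.08). The median ratio of genes of like level was -0.09 for ATP6V1F, -0.07 for ATP6V1G1 and ATP6V0E1, -0.04 for ATP6V0B and 0.00424 for ATP6V0D1. ATP6V1F, ATP6V1G1 and ATP6V0E1 lay above 34.0%, 37.0% and 26.6% of those genes, ATP6V0B above 34.3% and ATP6V0D1 above 28.6%. The proton-binding ring subunit ATP6V0C was at 202 in SCCs and 191 in non-SCCs, with a ratio of 0.08, and 72.1% of its exonic bases lie within other annotated models on its strand, so its value is uncertain.

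Among the subunits with alternative genes, ATP6V1E2, known mainly from testis, was at 2.43 in SCCs and 3.80 in non-SCCs, a log2 ratio of -0.49 and the only member at least 20% lower on the log2(value + 1) scale. It lay above 5.13% of genes of like level, and its widely expressed relative ATP6V1E1 was at 90.9 in SCCs and 98.3 in non-SCCs. ATP6V0A1, the a subunit known from neurons, was at 9.93 in SCCs and 9.03 in non-SCCs, with a ratio of 0.12. ATP6V1G2 was at 2.896 in SCCs and 2.997 in non-SCCs and shares 13.6% of its exonic bases with the read-through model ATP6V1G2-DDX39B, so its value is uncertain. The tissue-restricted genes ATP6V1G3, ATP6V0A4 and ATP6V0D2 were listed at 0 in both libraries, and ATP6V1C2 was below 1 unit in both, at 0.957 in SCCs and 0.827 in non-SCCs.

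Cathepsins, the lysosomal proteases, split by gene. Of 15, 11 were tested, 7 with a ratio above 0 and 4 below, and 4 were at least 25% higher, against 13.5% of all tested genes; CTSH, 1 of the 4, passed the filter only through SCCs. The median of 0.11 was 0.00737 with a minimum level of 5 or a mean level of at least 10 units. CTSF, a cysteine protease, was at 33.8 in SCCs and 25.3 in non-SCCs, a log2 ratio of 0.40 above 97.1% of genes of like level. The other 3 were at low levels. CTSS, known for cutting the invariant chain in antigen-presenting cells, was at 6.24 in SCCs and 3.89 in non-SCCs (ratio 0.57, above 88.3% of genes of like level), and CTSO at 4.20 in SCCs and 2.89 in non-SCCs (ratio 0.42, above 79.1%). CTSH, an aminopeptidase, was at 1.42 in SCCs and 0.339 in non-SCCs, and its ratio of 0.85 was above 72.1% of genes of like level.

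The best-known cathepsins differed little. The aspartic protease CTSD was at 147 in SCCs and 151 in non-SCCs, a log2 ratio of -0.04, with 41.7% of its exonic bases within another model on its strand, so its value is uncertain. CTSB was at 52.6 in SCCs and 48.8 in non-SCCs (ratio 0.11), and CTSL at 25.8 in SCCs and 22.8 in non-SCCs (ratio 0.17). CTSK, the collagen-digesting protease of osteoclasts, was at 38.0 in SCCs and 37.8 in non-SCCs. CTSC, which activates serine proteases, was at 27.5 in SCCs and 30.4 in non-SCCs, a ratio of -0.14. CTSE, CTSG, CTSW and CTSZ were listed at 0 in both libraries.

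LAMP1 and LAMP2, whose proteins line the lysosomal membrane, lay on opposite sides of 0. LAMP2 was at 23.2 in SCCs and 18.3 in non-SCCs, a log2 ratio of 0.32 above 92.0% of genes of like level. LAMP1 was at 92.6 in SCCs and 101 in non-SCCs, a ratio of -0.13 above 27.2% of them. TFEB, the best-known regulator of lysosomal genes, was at 2.24 in SCCs and 2.89 in non-SCCs, a ratio of -0.26 above 10.8% of genes of like level; its plain level was 22.4% lower. TFE3 was at 46.9 in SCCs and 43.8 in non-SCCs, a ratio of 0.10. Levels of their transcripts do not show their activity, which is set largely by where the proteins sit in the cell.

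The promoters of members were searched for letters of the CLEAR element, TCACGTG on either strand, which contains the E-box CACGTG. RefSeq windows of 250 bases before to 50 after a gene start (GRCh38.p14) were given for 56 of the 71 members. TCACGTG was in a window of 10 of the 56, or 17.9%, and of 1226 of all 27305 genes with a window, or 4.49%. The same 10 members and no other held CACGTG, which was in 8.77% of all genes, and the full CLEAR palindrome was in 1 member, ATP6V1G1, and 0.421% of all genes. The 30 bases around the first match are shown, 5′ to 3′ on the strand of the gene, with the motif in capitals, because they mark which members carry it. The spans are chr14:55411834-55411863 (minus strand) for ATG14, chr3:112561964-112561993 (minus) for ATG3, chr1:43974890-43974919 (plus) for ATP6V0B, chr16:67481199-67481228 (minus) for ATP6V0D1, chr7:149872883-149872912 (plus) for ATP6V0E2, chr9:114587699-114587728 (plus) for ATP6V1G1, chr20:45891280-45891309 (plus) for CTSA, chr11:1763957-1763986 (minus) for CTSD, chr11:66568712-66568741 (minus) for CTSF and chr13:113297034-113297063 (plus) for LAMP1.
ATG14: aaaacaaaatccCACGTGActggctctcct
ATG3: ccctttctcacgTCACGTGccgggagagtc
ATP6V0B: accggcgtggggTCACGTGgtaccggcgca
ATP6V0D1: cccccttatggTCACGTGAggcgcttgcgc
ATP6V0E2: ttcccttctgcaTCACGTGgggactgcgcc
ATP6V1G1: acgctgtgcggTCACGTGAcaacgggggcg
CTSA: ggaggaagactgTCACGTGgcgccggagtt
CTSD: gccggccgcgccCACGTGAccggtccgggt
CTSF: acatataacaagCACGTGAtagaggtcagt
LAMP1: gaccaggccgggTCACGTGggtccagggtc
The window of LAMP1 held 6 such sites, those of ATG3, ATP6V0B and CTSA 2 each, and the others 1 each. Of the 10 genes, 7 had a log2 ratio below 0 and 3 above, with a median of -0.05. Only CTSF, at 0.40, was at least 25% higher. The 38 tested members whose windows lacked these letters had a median of 0.04, and 6 of them were at least 25% higher, MAP1LC3B and GABARAPL1 among them. Over all tested genes with a window the median ratio was 0.03 both with and without the letters (759 and 9674 genes). At least 25% higher were 86 of the 759 and 1193 of the 9674. The counts of members are small and are not read as a difference between members with and without the letters. A match is a description of the sequence and not a measured binding site.

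**Figure D4:**
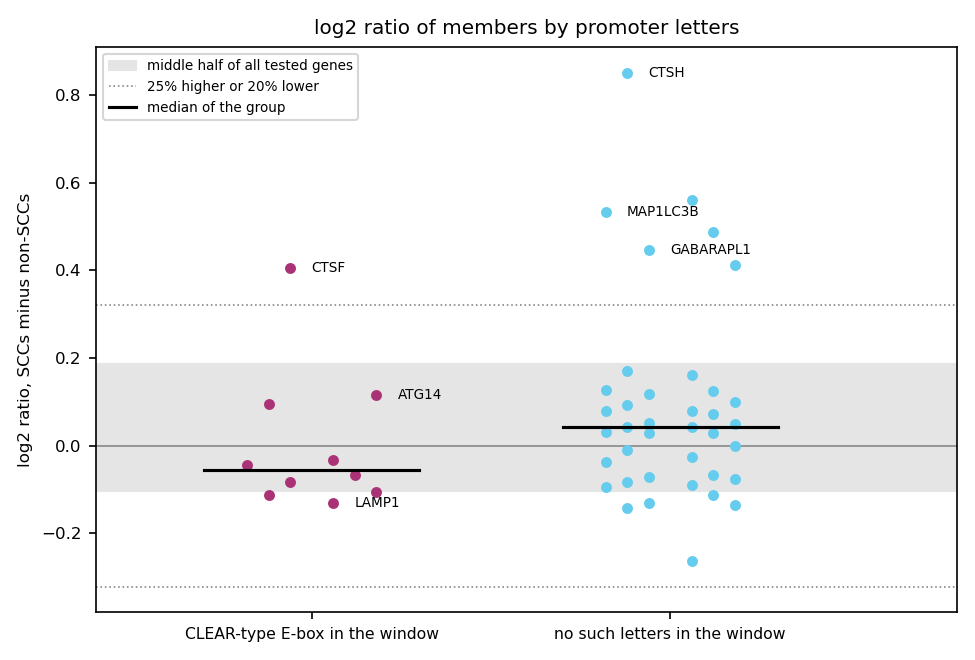
log2 ratio (SCCs minus non-SCCs) of tested members whose promoter windows hold the CLEAR-type E-box (10 genes, left) or lack it (38 genes, right), with bars at the medians (-0.05 and 0.04), a grey band between the quartiles of all tested genes and dotted lines at 25% higher and 20% lower. CTSF, at 0.40, stands alone above the dotted line on the left, while MAP1LC3B and GABARAPL1 are on the right.

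Other genes of the pathway were taken from 5 lists outside the member rule, 88 genes in all, of which 85 were tested. Their median log2 ratio was 0.10, with 72.9% above 0, against 56.2% of all tested genes. Of the 85, 9 were at least 25% higher, or 10.6%, below the 13.5% of all tested genes, and 0 were at least 20% lower. Autophagy receptors, which carry cargo to the ATG8 proteins, had a median of 0.14, with 12 of 13 above 0. OPTN, a receptor of mitochondria and bacteria, was at 7.27 in SCCs and 2.21 in non-SCCs, a ratio of 1.37 above 98.7% of genes of like level and the only gene of the 5 lists past 1.5-fold on the log2(value + 1) scale, where the share of all tested genes was 5.38%. BNIP3 and BNIP3L, mitochondrial receptors whose genes respond to low oxygen, were at 266 in SCCs and 181 in non-SCCs (ratio 0.55) and at 135 in SCCs and 110 in non-SCCs (ratio 0.30), above 98.9% and 98.1% of genes of like level. NBR1 was at 25.7 in SCCs and 20.02 in non-SCCs (ratio 0.34).

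SQSTM1, the receptor for ubiquitinated cargo, was at 61.0 in SCCs and 55.4 in non-SCCs, with a log2 ratio of 0.14. The other genes of autophagosome formation and fusion had a median of 0.13, with 17 of 18 tested above 0, against 56.2% of all tested genes. The largest ratios were those of RUBCN (0.39), an inhibitor of lipid kinase complexes, of WDR45 (0.31) and of the tethering subunit VPS41 (0.23). Those ratios were small, and only RUBCN was at least 25% higher.

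Accessory and assembly factors of the V-ATPase had a median of 0.02 (-0.01 with the median of all tested genes set to 0). They ranged from ROGDI at 0.38 to RNASEK at -0.27, with DMXL2, an assembly factor, at 0.27. This list also holds TCIRG1 (ratio -0.20), a V0 subunit gene whose symbol lies outside the member rule. Other lysosomal genes had a median of 0.02, which also turned below 0 with that setting, at -0.01, with 18 of 32 above 0, led by the sulfatase GALNS (0.39), the acid lipase LIPA (0.34) and the mannosidase MAN2B1 (0.28). The calcium channel MCOLN1 had a ratio of -0.09. Nutrient-sensing regulators of TFEB and TFE3 had a median of 0.11 over 11 tested genes. FNIP1, a partner of folliculin, was at 9.45 in SCCs and 6.07 in non-SCCs (ratio 0.56, a plain ratio of levels of 1.56), and the Rag GTPase genes RRAGB and RRAGC had ratios of 0.36 and 0.28.

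**Figure D5:**
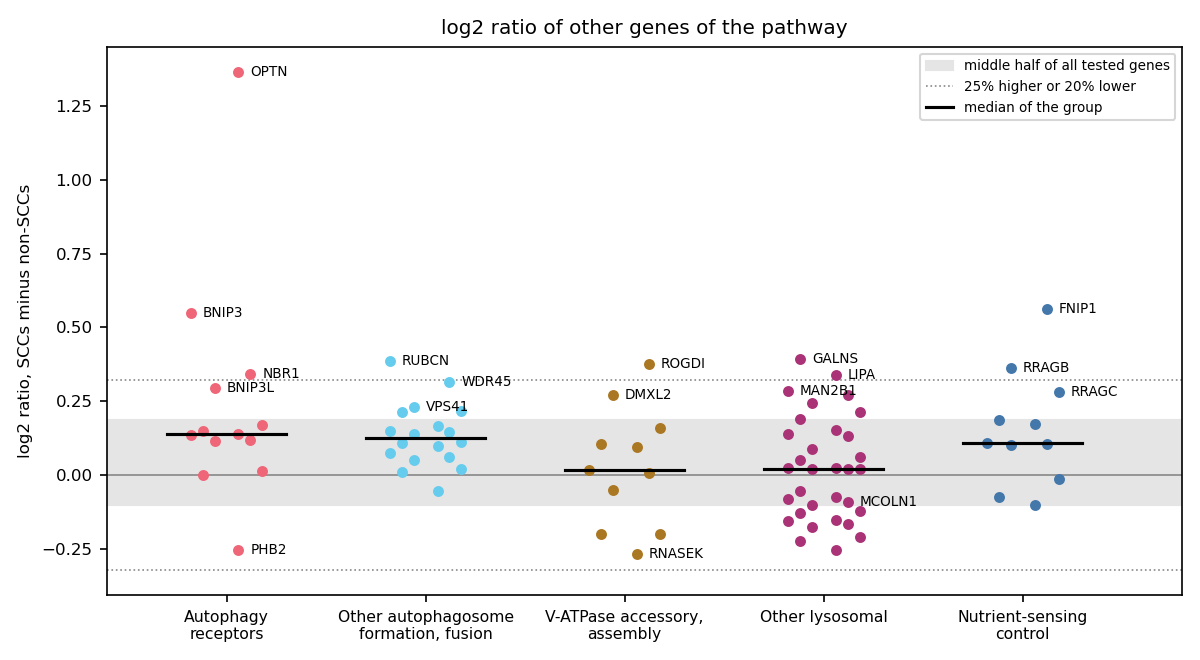
log2 ratio (SCCs minus non-SCCs) of the tested genes of 5 further lists of the pathway, with 1 point per gene, bars at the medians, a grey band between the quartiles of all tested genes and dotted lines at 25% higher and 20% lower. OPTN (1.37), BNIP3 (0.55) and FNIP1 (0.56) stand highest, and no gene of these lists lies below the lower dotted line.

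The read depth of both libraries was unknown, because the deposited values hold no counts. All 12 markers of the Ewing sarcoma line were tested, with 6 ratios above 0 and 6 below, from JAK1 at 0.26 to NR0B1 at -0.30. Their summed level was 4116 in SCCs and 4135 in non-SCCs. Most of it came from CAV1 (1433 in SCCs and 1455 in non-SCCs) and CCND1 (1081 in SCCs and 1066 in non-SCCs). Macrophages and osteoclasts are rich in lysosomes. Of 11 markers of these cells, 7 were listed at 0 in both libraries (CSF1R, PTPRC, TYROBP, ITGAM, ACP5, OCSTAMP and DCSTAMP), and the summed level of the 11 was 71.3 in SCCs and 60.1 in non-SCCs, mostly from AIF1 at 66.1 in SCCs and 57.0 in non-SCCs. CD68, itself a lysosomal protein, was at 4.36 in SCCs and 2.28 in non-SCCs. Of 8 fibroblast and pericyte markers the 5 tested were all higher, against 56.2% of all tested genes. The summed level of the 8 was 82.5 in SCCs and 61.7 in non-SCCs, and PDGFRA was listed at 0 in both. The part of these markers in the ratios of CTSS, CTSF and the other members was not tested.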

How the data were processed

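RNA of 2 SK-ES-1 libraries (1 SCCs, 1 non-SCCs) was made into stranded mRNA libraries, per the labels' protocols. Per the submitters' processing notes the build is hg38, with aligner, counter and annotation not given in the sources used here. The deposited values, called normalized per the file headers (columns headed LRC and non-LRC), were taken to be log2 values of per-million units plus 1: they are never negative, and 2 raised to each value, minus 1, sums to 983638 in SCCs and 984120 in non-SCCs. The scale is not stated. An exact 0 can be a failed estimate, since all 13 mitochondrial coding genes were listed at 0.

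Lines sharing a gene ID (174 with a locus suffix) were summed in per-million units. Genes with at least 1 unit in at least 1 library were tested, with a pseudocount of 1 and no further scaling. Genes of like level are those in the same of 20 equal bins of mean level. Gene types and promoters came from RefSeq (GRCh38.p14), exon overlaps and coding sequences from GENCODE release 29. Named are members past 1.5-fold, the 4 largest absolute ratios of each role, the ATG8 family, the founding regulators and the LAMP genes, and 3 genes of each further list plus SQSTM1, BNIP3, BNIP3L and MCOLN1; genes named beyond these were picked with their values in view. The members and lists were chosen with earlier results of these data known. Functions were tested on simulated data. Python 3.11.15, pandas 2.3.3 and Biopython 1.88 were used. Alternatives were 3 scalings, filters, a pseudocount of 0.1, other folds, protein-coding genes as background and, added after seeing the data, length-matched centring and a mean level of at least 10.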

Additional observations from a re-analysis of the deposited data

How the results depend on the processing

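A median was counted as moved when it shifted by more than 0.145 on the log2 scale, 0.5 times the interquartile range of all tested genes, since there are no replicates to set a spread. The count of members at least 1.5-fold higher, 1 as reported, was 11 at 25%, 0 at 2-fold, 0 under level-matched centring (3.24% of all tested genes), 0 with a minimum level of 5 (2.29%) or a mean level of at least 10 (1.05%), and 4 of 61 with a pseudocount of 0.1 (7.57%). The count at least 1.5-fold lower, 0 as reported, was 1 (ATP6V1E2) at 20%, 1 under level-matched centring (2.65%) and 1 with a pseudocount of 0.1 (2.31%). The ATG8 median of 0.29 was 0.14 with no filter, with a minimum level of 5 and with a mean level of at least 10, since the number of its low members changes. The TFEB and TFE3 median of -0.08 was 0.10 with a minimum level of 5 or a mean level of at least 10, which leave TFE3 alone. The medians of the conjugation genes and of the other lysosomal genes, within 0.04 of 0, were -0.03 under level-matched centring. With protein-coding genes as background, 11.7% were at least 25% higher and 4.08% at least 1.5-fold higher. Of the 61 tested members, 8 changed sign under at least 1 alternative, ATG2A, ATG4A, ATG4C, ATG5, ATP6V1B1, CTSD, CTSK and GABARAP, all with ratios within 0.08 of 0. No paired analysis was possible because each group has 1 library, and for the same reason no replicate could be left out.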

Other observations

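Entries outside the member rule gave further values. The read-through model ATP6V1G2-DDX39B, which runs through ATP6V1G2 into its neighbour, was at 371 per-million units in SCCs and 414 in non-SCCs, a log2 ratio of -0.16. ATP6V1G2 itself was at 2.896 in SCCs and 2.997 in non-SCCs. How the counting shared out reads that match both the model and the neighbour is not given, so the value of the model is uncertain. The antisense transcript ATP6V0E2-AS1 was at 1.99 in SCCs and 2.52 in non-SCCs, a ratio of -0.24, and ATP6V1B1-AS1 was listed at 0 in both. None of the 24 entries left out as pseudogenes had a value above 0 in either library. One of them, MAP1LC3BP1, was left out by its symbol, although RefSeq gives its type as protein-coding.

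The 5 LAMTOR genes, whose proteins form the Ragulator scaffold that anchors Rag GTPases to the lysosome, all had a ratio below 0, as did 5882 of all 13444 tested genes. The median of the 5 was -0.13, with a summed level of 565 in SCCs and 625 in non-SCCs. The LAMTOR genes were picked out after their values were seen. LAMTOR5, with the lowest ratio of the 5 at -0.17, lay above 19.9% of genes of like level. The Rag genes RRAGA, RRAGB, RRAGC and RRAGD had ratios of 0.19, 0.36, 0.28 and 0.17. PHB2, a receptor inside mitochondria, was the 1 autophagy receptor with a ratio below 0, at 517 in SCCs and 616 in non-SCCs (-0.25), above 7.37% of genes of like level.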
